A study of Mus musculus with 20 samples.

Results

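The genes described here are those that moved in the same direction when cultured mouse colon fibroblasts were kept in either of 2 organoid-conditioned media. They were found by comparing the mean of the 2 media, each with equal weight, with untreated fibroblasts, and by then requiring that the mean and each medium alone pass the test (adjusted p below 0.05) with the same sign. Of 14820 genes expressed well enough to be tested, 1425 rose and 1813 fell in this sense. They are called shared genes below. The comparison used 12 of the 20 libraries of the series, 4 in each of 3 groups.

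The series concerns inflammatory fibroblasts and the response of rectal cancer to treatment given before surgery. The untreated group was fibroblasts from the colon of C57BL6/J mice, titled wild-type, grown flat on plastic in Advanced DMEM F12 with 10% fetal bovine serum. The APTKA and APTK groups were the same kind of cells after 24 h in medium taken from organoids called APTKA or APTK. These names are not expanded in the labels, which name no irradiation for either group. The 8 remaining libraries were of an irradiated arm (5 fractions of 2 Gy) and entered the fit to share the estimate of the spread. They also took part in the expression filter and the scaling. With the 12 libraries alone, 14486 genes were tested. No group with unconditioned organoid medium was analysed here, so products of the organoids and the base of their medium cannot be told apart as the source of a shared change. The labels do not say whether replicates I to IV are different cultures or different mice. The p-values below therefore rest on library-to-library variation that could be purely technical.

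Fibroblasts in the wall of the gut make the collagen-rich matrix and send growth factors and cytokines to the epithelium. Cells that lack oxygen, or whose HIF transcription factors are active for another reason, turn on glycolytic enzymes, the lactate exporter Slc16a3 and the vessel growth factor Vegfa. Cells short of amino acids turn on the transcription factor ATF4, which raises amino acid transporters, serine synthesis enzymes and tRNA synthetases, and relief from that shortage lowers them again. Both programs are known to be read from short DNA motifs near gene starts: ACGTG is the core of the hypoxia response element and TGATGNAA is the form of the amino acid response element that ATF4 binds.

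Promoters of 3 shared genes are shown as examples of windows that hold these motifs. Whether either program acted in these cells was not tested. Each line gives the 250 bases before the transcription start listed by RefSeq (GRCm38.p6), read 5′ to 3′ on the strand of the gene, with matches to the 2 motifs in capitals. Slc16a3 lies at chr11:120948817-120949066 on the plus strand, Bnip3 at chr7:138909507-138909756 on the minus strand and Slc7a11 at chr3:50443614-50443863 on the minus strand. The GENCODE gene model of Slc16a3 starts further upstream, at 120948480, because it includes longer transcripts.

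Slc16a3: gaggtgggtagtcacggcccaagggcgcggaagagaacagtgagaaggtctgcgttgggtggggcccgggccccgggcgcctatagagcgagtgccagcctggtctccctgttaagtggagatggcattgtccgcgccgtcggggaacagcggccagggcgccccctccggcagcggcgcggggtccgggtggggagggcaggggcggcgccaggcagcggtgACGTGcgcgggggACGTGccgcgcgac

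Bnip3: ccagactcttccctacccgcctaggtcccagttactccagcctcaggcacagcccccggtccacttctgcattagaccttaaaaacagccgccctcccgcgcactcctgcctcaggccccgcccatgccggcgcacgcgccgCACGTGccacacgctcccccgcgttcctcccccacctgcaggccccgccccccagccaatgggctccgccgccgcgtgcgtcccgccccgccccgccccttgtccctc

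Slc7a11: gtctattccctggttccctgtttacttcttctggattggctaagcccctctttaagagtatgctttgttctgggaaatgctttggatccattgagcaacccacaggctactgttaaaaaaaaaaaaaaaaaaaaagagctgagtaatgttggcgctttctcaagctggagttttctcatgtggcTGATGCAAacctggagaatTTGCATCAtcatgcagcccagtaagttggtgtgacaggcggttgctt

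Slc16a3 and Bnip3 were shared rises, and Slc7a11 was a shared fall. The Slc16a3 window holds ACGTG on the gene's strand at 27 and at 14 bases before the start. The Bnip3 window holds 2 overlapping matches, 1 on each strand, at 108 and 107 bases before the start. The Slc7a11 window holds TGATGNAA on the gene's strand 66 bases before the start and on the other strand 47 bases before it. Among windows not printed, that of Mgarp, a shared rise, held ACGTG on the other strand 219 bases before the start. That of Slc1a4, a shared fall, held TGATGNAA on the other strand, beginning 4 bases before the start. That of Stc2, a shared fall of the stress response list, held neither motif. In windows of 300 bases (250 before and 50 after the start), searched on both strands, ACGTG was found in 16 of the 20 shared rises of the glycolysis and hypoxia lists, in 72.5% of all tested members of those lists with a window and in 28.9% of the 10642 tested genes with a window. TGATGNAA was found in 7 of the 25 shared falls of the stress response and amino acid lists that had a window (28.0%), in 26.7% of all their tested members and in 2.79% of tested genes. The shares among shared genes of these lists were thus near those among all tested members of the same lists. Across all shared rises ACGTG was found in 29.3%, close to its share among all tested genes. Across all shared falls TGATGNAA was found in 4.2% and ACGTG in 33.1%, against 2.79% and 28.9% of tested genes. A match describes the letters of a window and does not show that a factor was bound there.

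The mean of both media was called higher than untreated for 3926 genes (26.5% of those tested) and lower for 3811 (25.7%), with edgeR's quasi-likelihood test at an adjusted p below 0.05. The mean alone does not make a gene shared. Of the genes called higher, 1425 were higher in each medium, 1706 passed the test only with APTKA medium, 580 only with APTK medium, 190 moved in opposite directions and 25 passed in neither. Of the genes called lower, the same counts were 1813, 1360, 474, 147 and 17. The shared rises were 9.62% and the shared falls 12.2% of all tested genes. Each medium alone called more: 4668 genes higher (31.5%) and 4428 lower (29.9%) with APTKA medium, and 3099 higher (20.9%) and 3334 lower (22.5%) with APTK medium. Both comparisons use the same 4 untreated libraries.

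A further 736 genes (4.97%) were higher with APTKA medium and lower with APTK medium, and 569 (3.84%) did the reverse. The mean of the media missed the threshold for 968 of these 1305 genes. Of all tested genes, 1313 had all 8 medium libraries above the 4 untreated ones (8.86%) and 1725 had them all below (11.6%). That separation held for 1155 of the 1425 shared rises and 1575 of the 1813 shared falls. The changes were mostly modest. The median log2 fold change of shared rises was 0.63 with APTKA medium and 0.46 with APTK medium, and that of shared falls was -0.65 and -0.44. Over all tested genes the medians were 0.00 and 0.00. In both media at once, 190 genes rose and 226 fell by at least 2-fold.

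**Figure D1:**
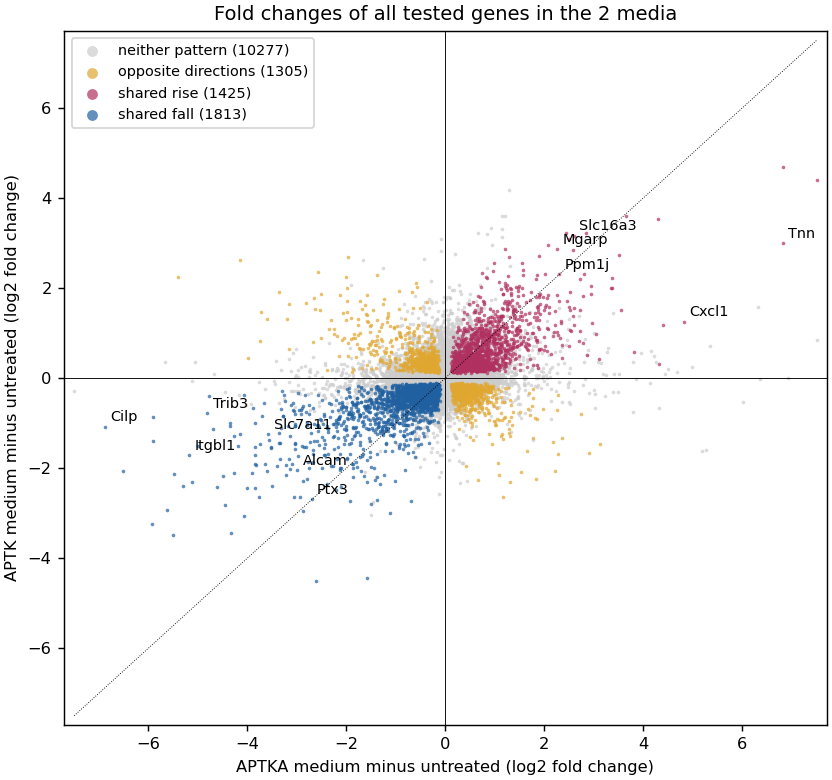
Log2 fold change against untreated with APTKA medium (horizontal) and APTK medium (vertical) for each tested gene, with shared rises, shared falls and genes moving in opposite directions coloured. The 1425 shared rises and 1813 shared falls fill the upper right and lower left, the 1305 opposite genes the other corners, and 3 genes beyond an absolute log2 fold change of 7.5 are drawn at the edge.

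Library totals ranged from 21.4 to 28.7 M counts over the 12 libraries. The first principal component (57.2% of the variance) set the APTKA libraries apart from the others, and the second (21.7%) set untreated (27.9 to 29.7) and APTK libraries (-32.1 to -29.7) on opposite sides with the APTKA libraries (0.69 to 4.20) between them. Mitochondrially encoded genes took 0.538 to 0.671% of counts in untreated, 0.404 to 0.598% with APTKA medium and 0.765 to 0.922% with APTK medium. All 8 fibroblast markers were expressed in every group. Their summed level was 55140 to 62110 CPM (counts per M of the library total as scaled by edgeR's TMM method) in untreated, 28330 to 32410 with APTKA medium and 47410 to 52920 with APTK medium. Col3a1 was the single shared fall among them. The 11 epithelial markers summed to at most 3.57 CPM, the 9 leukocyte markers to at most 11 CPM in any library, with Cd3e at 0 and Ptprc at no more than 0.118 CPM. Lyz2 was a shared fall among the leukocyte markers, with means of 6.19 CPM in untreated, 2.12 with APTKA and 4.40 with APTK medium. The same means were 1.27, 4.39 and 1.56 CPM for Cd14, 1.42, 2.16 and 1.70 for Cd68 and 1.45, 0.894 and 1.55 for Csf1r. The sum of 8 endothelial markers was 6.87 to 8.32 CPM in untreated, 1.84 to 2.56 with APTKA and 2.23 to 3.69 with APTK medium. Erg and Tek were shared falls among them, and the defining marker Cdh5 had 1 count in all 12 libraries. The adipocyte sum was 1.16 to 1.46 CPM, 3.33 to 3.79 and 4.17 to 6.07 CPM, nearly all of it Fabp4, with Cidec and Lep at 0. Of 9 pericyte and smooth muscle markers, Kcnj8 and Abcc9 were shared falls and Des a shared rise, and the sum was 1378 to 1547, 1161 to 1275 and 1488 to 1729 CPM. The part of these markers in the results below was not tested. In bulk RNA, fewer cells of a type and less RNA per cell cannot be told apart.

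Shared genes were ranked by shared size, meaning the smaller of a gene's 2 absolute log2 fold changes. Only genes with a mean log2 CPM of at least 2 were ranked. Their 8 medium libraries had to lie all above or all below the 4 untreated ones. Pseudogenes and genes without a symbol or with a provisional one were left out. Separation from untreated was thus set by this choice for the 12 largest rises and falls. The rises included a lactate exporter, a chemokine, a matrix protein and a growth factor. Slc16a3, which exports lactate, was at 17.0, 13.6, 14.9 and 18.6 CPM in untreated replicates I to IV, at 96.4, 95.7, 101 and 93.7 with APTKA medium and at 144, 145, 139 and 146 with APTK medium. The 3 groups did not overlap. Its log2 fold change was 2.59 ± 0.11 (SE) with APTKA medium and 3.16 ± 0.12 with APTK medium (adjusted p 3.6e-14 and 1.7e-14, edgeR). Ppm1j, a protein phosphatase of the PPM family, had 2.08, 1.68, 1.76 and 2.28 CPM in untreated, 10.2, 10.1, 9.66 and 8.71 with APTKA medium and 9.72, 9.1, 9.18 and 10.7 with APTK medium. The libraries of both media overlapped each other and lay above every untreated one. The log2 fold change of Ppm1j was 2.30 ± 0.13 with either medium.

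Tnn, which encodes the matrix glycoprotein tenascin N, was nearly silent in untreated cells, at 0, 0.173, 0 and 0.149 CPM. It had 8.58, 10.9, 10.2 and 8.39 CPM with APTKA medium and 0.538, 0.841, 0.585 and 0.721 with APTK medium. All medium libraries lay above the untreated ones, and the APTKA libraries lay above all others. Cxcl10, a chemokine that attracts activated T cells, rose from 0.781 to 1.52 CPM to 6.32 to 8.82 with APTKA and 2.92 to 6.84 CPM with APTK medium. Its exons overlap Art3 on the opposite strand. The rest of the 12 largest rises under the conditions above were Mgarp, Pdlim4, Mst1r, Angptl4, Pkn3, Celf4, Cck and Fgf10. Cxcl2 and Cxcl3, described below, had larger shared sizes but did not meet the conditions. Cck encodes the gut peptide cholecystokinin, and it was at 11.8 to 16 CPM in untreated, 26.9 to 51.7 with APTKA and 66.8 to 96.4 CPM with APTK medium. Mst1r encodes the receptor for macrophage-stimulating protein. It rose by 1.92 with APTKA and 1.65 with APTK medium on the log2 scale.

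The falls of largest shared size under the same conditions, which set their separation from untreated, included secreted and surface proteins. Ptx3, a secreted pattern recognition protein, was at 70.6, 66.3, 66.6 and 62.7 CPM in untreated, 9.48, 11.5, 10.4 and 9.45 with APTKA medium and 11.5, 11, 8.96 and 9.93 with APTK medium. Both media lay far below untreated and overlapped each other. Its log2 fold change was -2.71 ± 0.20 with APTKA and -2.69 ± 0.20 with APTK medium (adjusted p 9.3e-10 and 4.3e-09, edgeR). Alcam, a cell adhesion molecule of the immunoglobulin family, was at 78.0, 62.8, 67.8 and 68.6 CPM in untreated, 8.07, 7.81, 9.35 and 9.57 with APTKA and 18.3, 16.5, 15 and 17.3 with APTK medium. The groups did not overlap, and the APTKA libraries were lowest. Mt1, which encodes the metal-binding protein metallothionein 1, went from 29.4 to 42.3 CPM to 8.11 to 12.7 and 8.32 to 11.7 CPM. Limch1, Pi15, Id4, Sema5a, Fmod, Endod1, Vegfd, Itgbl1 and Ptchd1 completed the 12. Scara5, described below, had a larger shared size but did not reach the level required. Among the 24 genes of both directions, Cxcl10, Fgf10, Id4, Pi15, Pkn3 and Ptchd1 share exon sequence with a gene on the opposite strand, from which reads cannot be told apart without a stated strand setting.

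**Figure D2:**
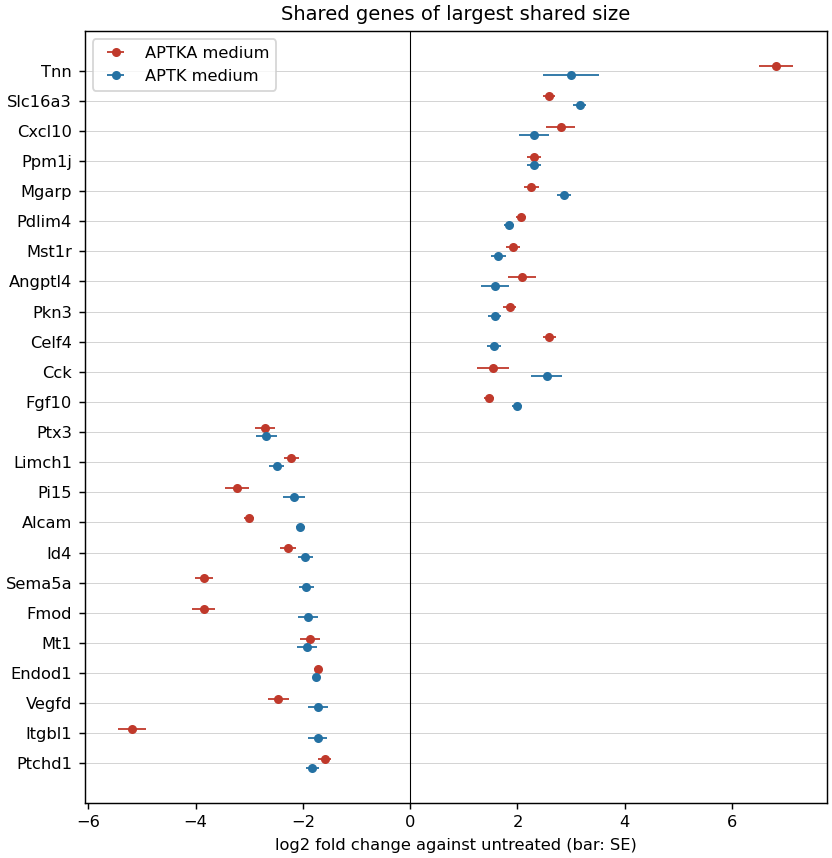
Log2 fold change against untreated, with its standard error, of 12 shared rises and 12 shared falls, for APTKA and APTK medium. They have the largest shared size among genes with separate libraries and a mean log2 CPM of at least 2. Ppm1j, Ptx3, Mt1 and Endod1 have nearly the same value in both media, while Tnn (6.81 and 3.00) and Itgbl1 (-5.18 and -1.72) differ most.

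Many genes of glucose metabolism rose in both media. Of 21 tested genes of glycolysis and glucose uptake, 11 were shared rises and none was a shared fall, against 9.62% and 12.2% of all tested genes. These shares are the background for every list below. For opposite directions the background was 4.97% (APTKA higher) and 3.84% (APTKA lower). Whether a list differs from the background was not tested. The glycolysis list's median log2 change in the mean of the media was 0.56, against 0.02 over all genes. The 11 ran along the pathway: the glucose importer Slc2a1, hexokinase Hk1, the phosphofructokinase Pfkl and its regulators Pfkfb3 and Pfkfb4, Aldoa, Tpi1, Pgk1, Pgam1, the lactate-forming Ldha and the exporter Slc16a3. Tpi1 rose from 160, 161, 177 and 192 CPM to 368, 352, 366 and 369 with APTKA and 378, 366, 355 and 344 with APTK medium, a log2 fold change of 1.08 and 1.06. Ldha rose from 215 to 269 CPM to 436 to 447 and 421 to 457 CPM, by 0.89 and 0.88. Tpi1 overlaps Spsb2 on the opposite strand. The remaining members were less uniform. Pfkp, Pfkm and Gpi1 fell with APTKA medium and rose with APTK medium, and Aldoc, a brain-type aldolase present at a low level, had a log2 fold change of 3.09 with APTK medium and -0.08 with APTKA medium.

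The hypoxia list had 9 shared rises and 2 shared falls among 25 tested genes, and 4 members were lower with APTKA and higher with APTK medium. The list's median log2 change was 0.04 with APTKA and 0.42 with APTK medium. Mgarp, a mitochondrial protein known to be induced in low oxygen, was at 1.48, 1.34, 1.56 and 1.46 CPM in untreated, 7.20, 6.52, 7.05 and 7.29 with APTKA and 10.5, 11.5, 11.9 and 8.61 with APTK medium. Bnip3, which acts in removal of mitochondria, was at 15.4, 12.7, 13.7 and 12.2 CPM, then 36.4, 36.2, 35.6 and 36.3, and 59.2, 54.5, 51.4 and 55.1 CPM. In both genes the 3 groups were separate, in the order untreated, APTKA, APTK. Ak4, a mitochondrial adenylate kinase, rose by 1.21 and 2.04 on the log2 scale with APTKA and APTK medium.

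Vegfa, the main growth factor for vessels, was at 210, 198, 192 and 164 CPM in untreated, 421, 342, 376 and 327 with APTKA and 383, 381, 354 and 384 with APTK medium. The media overlapped each other and lay above untreated, with log2 fold changes of 0.94 ± 0.08 and 0.98 ± 0.08. Adm, Egln3, Fam162a, P4ha2 and Mxi1 were the other rises. Hif1a itself rose with APTKA medium, by 0.35, and was at -0.03 with APTK medium. Against the list's direction, Stc2 and Ndrg1 were shared falls. Stc2 encodes a secreted glycoprotein and is also a target of the stress response described next. It was at 9.80, 8.15, 9.33 and 6.16 CPM in untreated, 2.02, 2.66, 1.78 and 1.88 with APTKA and 2.15, 2.33, 2.23 and 2.84 with APTK medium. Both media lay below untreated and overlapped.

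Glycogen genes split evenly. Of 15 tested, 4 were shared rises (Pygl, Ppp1r3b, Gys1, Pgm1) and 4 were shared falls, among them Gbe1 and Ugp2. Pygl, which breaks glycogen down, rose by 0.83 with APTKA and 2.25 with APTK medium on the log2 scale. Gys1, which builds it, rose by 0.45 and 0.70, whereas the branching enzyme Gbe1 fell by 0.35 and 0.97.

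**Figure D3:**
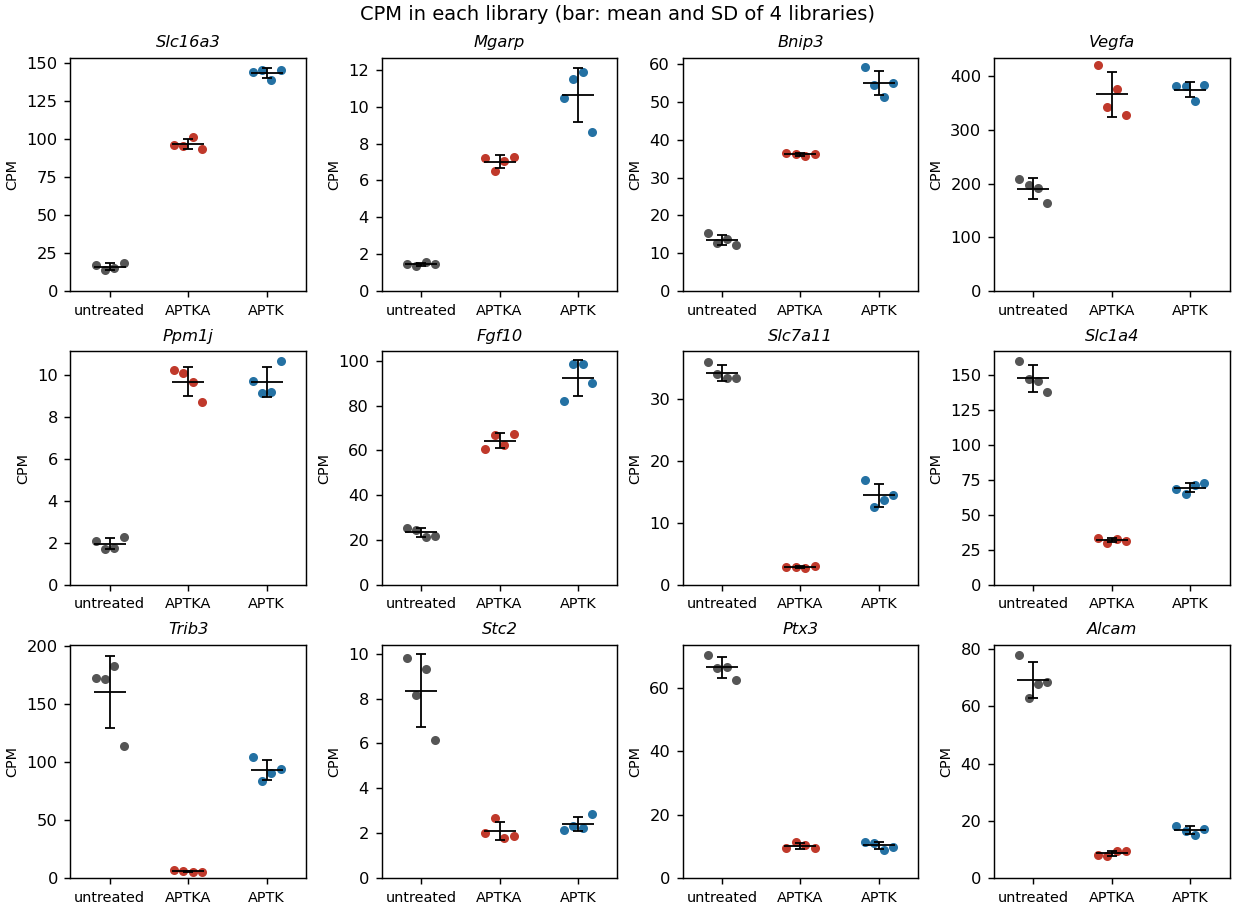
CPM of 12 shared genes in each library of the untreated, APTKA and APTK groups, with the mean and SD of 4 libraries and axes that start at 0. Vegfa, Ppm1j, Stc2 and Ptx3 reach about the same level in both media, the 6 falling genes lie below every untreated library in both, and the fall of Slc7a11 and Trib3 is larger with APTKA medium.

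Many genes of amino acid metabolism fell in both media. Of 16 tested amino acid transporters 9 were shared falls, of 17 genes of amino acid, serine and one-carbon synthesis 10, and of 20 cytosolic tRNA synthetases 11. None of these 53 entries was a shared rise. Of all tested genes, 12.2% were shared falls and 9.62% shared rises. The medians of the 3 lists in the mean of the media were -0.50, -0.74 and -0.41. Slc7a11, the cystine importer, was at 35.9, 33.9, 33.4 and 33.3 CPM in untreated, 2.83, 2.91, 2.65 and 2.98 with APTKA and 16.9, 12.6, 13.7 and 14.4 with APTK medium. Its log2 fold change was -3.58 ± 0.10 and -1.25 ± 0.08, and the difference between the media was itself called (-2.34, adjusted p 1.4e-16, edgeR). Slc1a4, which carries serine and alanine, fell by 2.22 and 1.09 on the log2 scale, and Slc7a5, which carries large neutral amino acids, by 3.70 and 0.84.

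Mthfd2, a mitochondrial folate enzyme, went from 142, 136, 139 and 128 CPM to 16.1, 16, 17.4 and 15.8 with APTKA and 86.0, 77.6, 79.7 and 81.8 with APTK medium. The 3 groups were separate. The serine synthesis enzymes Phgdh (-2.01 and -0.70) and Psph (-2.06 and -0.63) fell together with Psat1 (-1.77 and -0.17) on the log2 scale. Among the synthetases, Aars fell from 603 to 651 CPM to 270 to 290 and 422 to 474 CPM. Lars fell by 0.60 and 0.48 and Nars by 0.57 and 0.45. The synthetases Farsb, Hars and Rars were higher with APTKA medium and lower with APTK medium.

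The integrated stress response list, which holds the factors above these genes, had 10 shared falls and 1 shared rise (the kinase gene Eif2ak4) among 20 tested. Atf4 was at 454, 469, 484 and 431 CPM in untreated, 308, 292, 297 and 294 with APTKA and 425, 375, 391.5 and 386 with APTK medium. No medium library reached an untreated one, and the log2 fold changes were -0.63 ± 0.05 and -0.22 ± 0.05. Trib3, a pseudokinase target of ATF4, was at 173, 172, 183 and 114 CPM, then 6.49, 5.96, 5.09 and 5.22, and 105, 83.8, 90.9 and 93.8 CPM. It fell by 4.81 and 0.78. Chac1, which degrades glutathione, fell by 4.78 with APTKA medium, while its fall with APTK medium (-0.40, adjusted p 0.045, edgeR) missed the threshold without any single library of the 12 except untreated I, at adjusted p up to 0.118. The call for Chac1 with APTK medium is therefore weak. Ddit3 fell by 1.42 and 0.53, and shares exon sequence with the synthetase gene Mars on the opposite strand.

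The endoplasmic reticulum list showed little that was shared. Of 22 tested genes, 3 were shared falls (Canx, Atf6, Edem1), near the background, although 20 were lower with APTKA medium, against 29.9% of all tested genes. The count was 2 with upper quartile scaling, where the fall of Edem1 with APTK medium missed the threshold (adjusted p 0.0765, edgeR), and 5 with DESeq2. Hspa5, the main chaperone of that compartment, fell from 1283 to 1389 CPM to 551 to 629 with APTKA medium and was at 1299.5 to 1428 CPM with APTK medium, a log2 difference of -0.01 ± 0.05 from untreated.

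Antioxidant genes driven by NRF2 fell with 12 of 21 tested members, and none rose in both media. Slc7a11 is on this list too. Gclc and Gclm, the 2 subunits of the enzyme that starts glutathione synthesis, fell by 1.22 and 0.68 and by 1.87 and 0.60 on the log2 scale. Nqo1, a quinone reductase, went from 58.8, 64.2, 69.7 and 75.5 CPM to 30.7, 26.3, 29.0 and 26.6 with APTKA and 51.0, 43.2, 40.7 and 44.8 with APTK medium. Hmox1, Gsr, Srxn1, Txnrd1, Gstm1, Fth1, G6pdx and Me1 also fell. Without single libraries the count of shared falls on this list was 9 to 12.

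Lysosomal genes had the highest share of falls, 14 of 20 tested, with 1 shared rise. The rise was Tfeb, the transcription factor known to induce lysosomal genes (0.48 and 0.45 on the log2 scale). Ctsk, a collagen-degrading cathepsin, was at 148, 163, 169 and 171 CPM in untreated, 59.6, 51.1, 50.2 and 53.1 with APTKA and 101, 100, 98.1 and 101 with APTK medium. The groups did not overlap. Lamp1, a main protein of the lysosomal membrane, fell by 0.84 and 0.52 and the hydrolase subunit Hexa by 0.70 and 0.49. The proton pump subunits Atp6v1a and Atp6v1h fell by 0.41 and 0.35 and by 0.13 and 0.28.

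**Figure D4:**
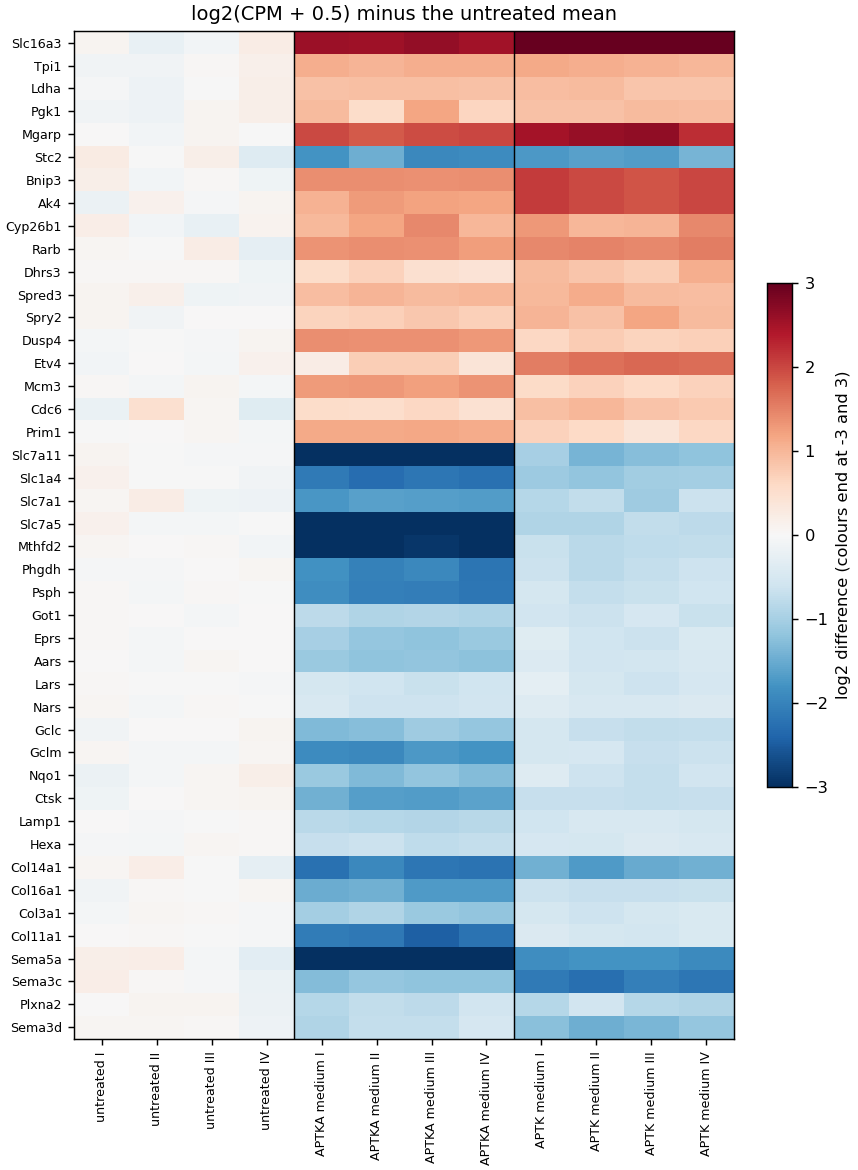
Difference of log2(CPM + 0.5) from the untreated mean in each of the 12 libraries, for 44 shared genes of 12 lists, with colours ending at -3 and 3. The 4 libraries of a medium have like colours for most genes, Slc16a3, Mgarp, Bnip3 and Ak4 are higher with APTK than with APTKA medium, and the falls of the amino acid genes shown are stronger with APTKA medium.

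Chemokines that attract neutrophils rose in both media at very different levels. Of 23 tested chemokines and inflammatory mediators, 7 were shared rises and 2 shared falls. Cxcl1 was at 3.36, 2.93, 3.36 and 3.32 CPM in untreated, 102, 92.1, 88.9 and 83.0 with APTKA and 7.18, 8.68, 7.64 and 7.38 with APTK medium. Cxcl5 was at 5.68 to 6.52 CPM, 102 to 146 and 11.9 to 15.4 CPM. For both genes the 3 groups were separate, and the rise with APTK medium passed the test but was small, with log2 fold changes of 1.25 ± 0.14 and 1.19 ± 0.15 beside 4.81 ± 0.12 and 4.39 ± 0.14 with APTKA medium.

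Cxcl2 had no count in any untreated library, 1293 counts over the APTKA group and 10 over the APTK group. With the untreated group set to a floor of 3 counts, it was at least 406-fold higher with APTKA and at least 3.25-fold higher with APTK medium. Without APTK replicate III the call with APTK medium was lost (adjusted p 0.0653, edgeR). Cxcl3 had 1 count in untreated, 179 with APTKA and 39 with APTK medium, ratios of 169 (exact 95% interval 29.9 to 6700) and 38.1 (6.44 to 1540). These bounds and intervals cover counting error only.

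Ptges, which makes prostaglandin E2, rose by 1.63 and 1.28 on the log2 scale, and the monocyte chemokine Ccl7 by 2.35 and 0.45. Ccl2, its close relative, rose by 3.17 with APTKA medium and was at 0.09 ± 0.18 with APTK medium, so it was not shared. Il33, an alarmin cytokine, was a shared fall, from 1.60 to 2.23 CPM to 0.101 to 0.275 and 0.344 to 0.732 CPM. Il6 was higher with APTKA and lower with APTK medium (1.71 and -0.82), where the call with APTK medium was lost without APTK replicate III (-0.57, adjusted p 0.0718, edgeR) or untreated III.

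Of 20 tested NF-kB genes, 4 were shared rises and 5 moved in opposite directions. Nfkbiz, an atypical inhibitor that acts in the nucleus, rose from 29.9 to 34.2 CPM to 92.7 to 120 and 43.1 to 57.5 CPM. Bcl3 rose by 2.00 and 0.62 on the log2 scale. Icam1 (3.10 and 0.41) and Tnfaip3 (4.31 and 0.31) were shared only narrowly: the call with APTK medium was lost without untreated replicate IV in both genes (adjusted p 0.077 and 0.0592, edgeR), and for Tnfaip3 also without APTK replicate IV (0.0646). In the IL-6 and STAT list 4 of 15 rose and 1 fell. Socs2, a feedback inhibitor of cytokine receptors, rose from 15.1 to 17.8 CPM to 29.2 to 31.2 and 31.2 to 34.8 CPM, and the receptor Osmr rose by 0.57 and 0.41 while Lifr fell by 0.76 and 0.43.

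The type I interferon list held no shared gene, and the shared rise Cxcl10 was counted on the chemokine list instead. Of 25 tested type I interferon-stimulated genes none was a shared rise or fall, and 17 were lower with APTKA and higher with APTK medium. Their median was -0.01 in the mean of the media, -1.28 with APTKA and 1.15 with APTK medium. Antigen presentation held 1 shared rise (H2-Ab1, 0 to 0.240 CPM in untreated, 0.479 to 0.706 and 0.934 to 1.15 CPM in the media) and 3 shared falls, of 13 tested. The falls were Erap1, which trims peptides (-1.84 and -0.86 on the log2 scale), Psmb10 and Tapbp. The APTK call of Tapbp was lost without APTK replicate I (adjusted p 0.068, edgeR). Of 11 complement genes, Cd55 and C4b fell, the latter not without untreated I, APTK I or APTK II (adjusted p 0.0715 to 0.11 with APTK medium, edgeR). Cd55, which protects cells from complement, fell by 1.10 and 1.03.

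Of 18 tested growth factors for epithelium and vessels, 3 were shared rises and 2 shared falls, near the 9.62% and 12.2% of all tested genes. Fgf10, a growth factor for epithelium, was at 25.4, 24.4, 21.4 and 21.9 CPM in untreated, 60.6, 66.7, 62.3 and 67.4 with APTKA and 82.0, 98.5, 98.6 and 90.1 with APTK medium. The groups did not overlap. Angptl4, which inhibits lipoprotein lipase, rose from 21.1 to 27.8 CPM to 83.9 to 118 and 70.1 to 82.4 CPM. Vegfd and Angpt1, ligands for lymphatic and blood vessel receptors, fell: Vegfd from 61.7 to 72.4 CPM to 12.2 to 13.0 and 19.0 to 21.7 CPM, and Angpt1 by 3.04 and 1.45 on the log2 scale. Vegfa was the remaining shared gene of this list.

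Among 18 tested Wnt genes, 4 rose and 4 fell in both media. The inhibitor Dkk2 was at 102, 103, 102 and 94.5 CPM in untreated, 295, 257, 259 and 287 with APTKA and 318, 310, 322 and 321 with APTK medium. The Wnt effector Tcf7 rose from 0.373 to 0.640 CPM to 1.04 to 1.49 and 1.10 to 1.57 CPM, and Wnt5b by 0.45 and 0.56 on the log2 scale. Rnf43, a Wnt receptor antagonist, rose by 1.60 and 0.71, but the APTK call was lost without untreated II or IV or APTK I or II (adjusted p 0.0627 to 0.119, edgeR). The ligands Wnt2 (-1.70 and -2.07) and Wnt5a (-1.06 and -0.66), the R-spondin Rspo3 (-0.81 and -0.58) and the effector Lef1 (-1.02 and -0.44) fell. Wnt2 was at a low level, 0.411 to 1.08 CPM in untreated and 0.110 to 0.303 CPM in the media.

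Of 16 tested BMP genes, 5 rose and 4 fell. The rises included the ligand Bmp4, the antagonist Grem1 and the BMP target genes Id1 and Id3. Id1 rose from 2.48, 2.54, 3.12 and 4.71 CPM to 6.12, 5.54, 5.74 and 5.37 with APTKA and 5.76, 5.47, 5.38 and 5.52 with APTK medium. The antagonists Chrd and Chrdl1, the ligand Bmp6 and the receptor Bmpr1a fell, with log2 fold changes for Chrd of -1.95 and -0.77. Of 18 TGF-beta genes, 6 rose and 3 fell. Ccn2, a matricellular target of TGF-beta and YAP, rose from 991 to 1042 CPM to 2784 to 3262 and 1641 to 1885 CPM. Inhba, a subunit of activin, rose by 1.37 and 0.67, Tgfb2 by 1.41 and 0.42 and the coreceptor Tgfbr3 by 1.2 and 0.87, while the receptor Tgfbr2 fell by 0.83 and 0.37. Tgfb1 missed the threshold in both media (-0.10 ± 0.11 and -0.13 ± 0.11).

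Feedback inhibitors of MAPK signalling and ETV factors held 5 shared rises and no fall among 16 tested, with a median of 0.79 in the mean of the media. Spred3 rose from 11.4 to 13.9 CPM to 24.2 to 25.9 and 24.2 to 27.7 CPM. Spry2, Dusp4, Phlda1 and Etv4 were the others, and Etv4 rose more with APTK medium (1.69) than with APTKA medium (0.55). A further 4 members were lower with APTKA and higher with APTK medium. Of 22 tested immediate early genes, 2 were shared rises and 4 shared falls, near the shares over all genes, and 5 were higher with APTKA and lower with APTK medium. Fos, a subunit of AP-1, fell from 15.2, 15.6, 10.3 and 11 CPM to 3.77, 2.00, 2.78 and 2.12 and 5.57, 6.16, 4.94 and 4.16 CPM. Nr4a1, Klf2 and Klf4 fell as well, and Maff and Klf10 rose.

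Retinoic acid genes had 5 shared rises and no fall among 14 tested. Rarb, a retinoic acid receptor that is itself a target of retinoic acid, was at 10.3, 9.79, 11.7 and 8.10 CPM in untreated, 25.9, 26.7, 26.5 and 24.4 with APTKA and 27.8, 28.7, 27.7 and 29.5 with APTK medium. Cyp26b1, which breaks retinoic acid down, rose by 1.63 ± 0.24 and 1.68 ± 0.24 on the log2 scale from a low level of 0.508 to 0.840 CPM. Dhrs3 and Aldh1a3 rose too. Rarb overlaps Top2b on the opposite strand. Among 18 clock genes, Dbp, Per2, Ciart and Rora rose and Tef fell. Dbp rose by 1.12 and 0.77, and the APTK call of Ciart was lost without untreated replicate IV (adjusted p 0.104, edgeR).

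Matrix genes fell more often than they rose, as did all tested genes (12.2% shared falls and 9.62% shared rises). Of 20 tested collagens 6 were shared falls and 1, Col7a1, a shared rise. Col14a1, which sits on the surface of collagen fibrils, was at 92.0, 101, 87.2 and 73.0 CPM in untreated, 18.3, 22.7, 19.2 and 18.4 with APTKA and 32.0, 26.5, 30.6 and 32.2 with APTK medium. Col3a1, a main fibrillar collagen, fell by 1.06 and 0.53 on the log2 scale, and Col16a1, Col11a1, Col5a1 and Col8a2 fell with it. Col1a1 fell with APTKA medium (-0.75 ± 0.12) and was at -0.11 ± 0.12 with APTK medium, so it was not shared.

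Elastic fibre, proteoglycan and matricellular genes had 9 falls and 1 rise (Thbs1) among 26 tested. Fmod, which encodes the small proteoglycan fibromodulin, went from 21.9, 20.7, 18 and 15.2 CPM to 1.08, 1.86, 1.35 and 0.941 and 4.38, 4.82, 5.85 and 5.18 CPM. Efemp1 and Fbln5, fibulins of elastic fibres, fell by 2.43 and 1.47 and by 1.87 and 1.11. Cilp, a matrix protein of cartilage, fell by 6.88 and 1.08. Of 17 genes that crosslink or hydroxylate collagen 8 fell, among them the crosslinking enzyme Lox (-0.92 and -0.64), and the prolyl hydroxylase P4ha2 rose. Of 22 proteases and inhibitors 6 fell. Timp3, a matrix-bound protease inhibitor, went from 418, 397, 372 and 347 CPM to 52.8, 51.7, 54.3 and 53.1 and 127, 135, 133 and 139 CPM, and it overlaps Syn3 on the opposite strand.

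Genes for contact with matrix and neighbouring cells fell as well. Of 20 integrins and adhesion receptors, 9 were shared falls and 1, Itga5, a shared rise. Itgb8, an integrin that activates latent TGF-beta, fell by 2.12 and 2.04 on the log2 scale, Ncam1 by 2.17 and 1.00 and Itga7 by 0.97 and 0.84. Itgb8 was at a low level, 1.32 to 2.02 CPM in untreated and 0.268 to 0.637 CPM in the media. Of 20 semaphorins, plexins and netrins, which guide cells and axons, 8 fell and none rose. Sema3c was at 306, 271, 260 and 230 CPM in untreated, 107, 118, 114 and 114 with APTKA and 60.8, 54.9, 63.7 and 58.4 with APTK medium. Sema3c and Sema3d fell more with APTK medium, and Sema5a (-3.84 and -1.93) more with APTKA medium. The count of falls on this list was 12 with DESeq2 or its size factors and 14 when the 12 libraries were fitted alone.

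Of 14 genes of PDGF signalling and IGF binding proteins, 5 fell and 1 rose. The falls included Igfbp2, Igfbp3 and Igfbp5, which bind insulin-like growth factors. Igfbp3 fell by 1.92 with APTKA and 2.73 with APTK medium. The ligand Pdgfd rose by 0.48 and 0.79, whereas the receptor Pdgfra fell with APTKA medium (-0.36) and rose with APTK medium (1.69). Of 17 genes of quiescent and adventitial fibroblasts, 4 fell and 2 rose. Dpt, a matrix protein of these cells, went from 78.0, 79.7, 89.8 and 87.6 CPM to 39.7, 47.1, 55.0 and 49.1 and 20.9, 18.7, 22.8 and 18.6 CPM. Scara5, a ferritin receptor, had 87 counts in untreated, 1 with APTKA and 9 with APTK medium, ratios of 0.0108 (exact 95% interval 0.000271 to 0.0619) and 0.101 (0.0447 to 0.201), which cover counting error only. Contractile genes had 2 shared rises (Des, Lmod1) and 1 shared fall (Flna) of 17, against 9.62% and 12.2% of all tested genes. Acta2, the actin of smooth muscle and myofibroblasts, was at -0.38 ± 0.07 with APTKA medium and missed the threshold with APTK medium (-0.14 ± 0.07).

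Several replication genes rose in both media. Of 26 tested genes of DNA replication and S phase, 13 were shared rises and 1 a shared fall, with a median of 0.43. Mcm3, a subunit of the replicative helicase, was at 8.80, 8.28, 9.22 and 8.22 CPM in untreated, 21.4, 21.9, 21.1 and 22.7 with APTKA and 13.1, 14.2, 13.4 and 14.2 with APTK medium. Other helicase subunits (Mcm2, Mcm4, Mcm5, Mcm6), the primase Prim1, the polymerases Pold1 and Pole and the cell cycle genes Cdc6, Ccne1 and E2f1 rose as well, with log2 fold changes from 0.22 (Mcm2 with APTK medium) to 1.23 (Prim1 with APTKA medium). Pcna, the sliding clamp, fell by 0.28 and 0.32. Without single libraries the count of rises on this list was 9 to 13.

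Of 20 tested mitotic genes, 3 were shared rises (Tpx2, Bub1b and Bub1) and 7 passed in neither medium. The APTK call of Bub1 was lost without untreated III or IV or APTK I (adjusted p 0.0513 to 0.0709, edgeR). Mki67, a marker of cycling cells, was at 7.73 to 12 CPM in untreated, 9.62 to 15.4 with APTKA and 10.8 to 13.4 CPM with APTK medium. The groups overlapped. Its mean over the media was called higher (0.31 ± 0.13, adjusted p 0.045, edgeR), but it was not shared, and that call was lost without untreated II, III or IV, without APTKA II, III or IV, and without APTK II, III or IV (adjusted p 0.0531 to 0.208). The difference between the replication and the mitosis list was not tested.

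Other lists held few shared genes or many that moved in opposite directions. Of 20 ribosome biogenesis genes, 15 were higher with APTKA and lower with APTK medium, and 1 (Gnl3) was a shared fall. The APTKA call of Gnl3 was lost without untreated I or IV or APTKA I, II or III (adjusted p 0.0586 to 0.105, edgeR). Of 25 p53 targets, 10 did the same, 2 did the reverse and 5 were shared falls, among them Bbc3, a pro-apoptotic gene (-1.2 and -1.11), and Sesn2. Cdkn1a was at 0.62 with APTKA and -0.45 with APTK medium. Of 24 cholesterol genes, 23 were lower with APTKA medium, against 29.9% of all tested genes, but 4 were shared falls. Of 7 mitochondrially encoded genes none was shared. Sqle, a cholesterol synthesis enzyme, fell by 1.59 and 0.34. The APTK call of Mvk was lost without untreated IV or APTK II (adjusted p 0.0939 and 0.053, edgeR). That of Ebp was lost without untreated III or IV or APTK I, III or IV (adjusted p 0.0568 to 0.216, edgeR). Upper quartile scaling or no filter also ended the Ebp call (adjusted p 0.0851 and 0.0869, edgeR). The count of shared falls among cholesterol genes ran from 1 to 5 without single libraries. Of 21 nuclear genes of the respiratory chain, 3 rose and 1 fell, and without single libraries the rises ran from 0 to 4.

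**Figure D5:**
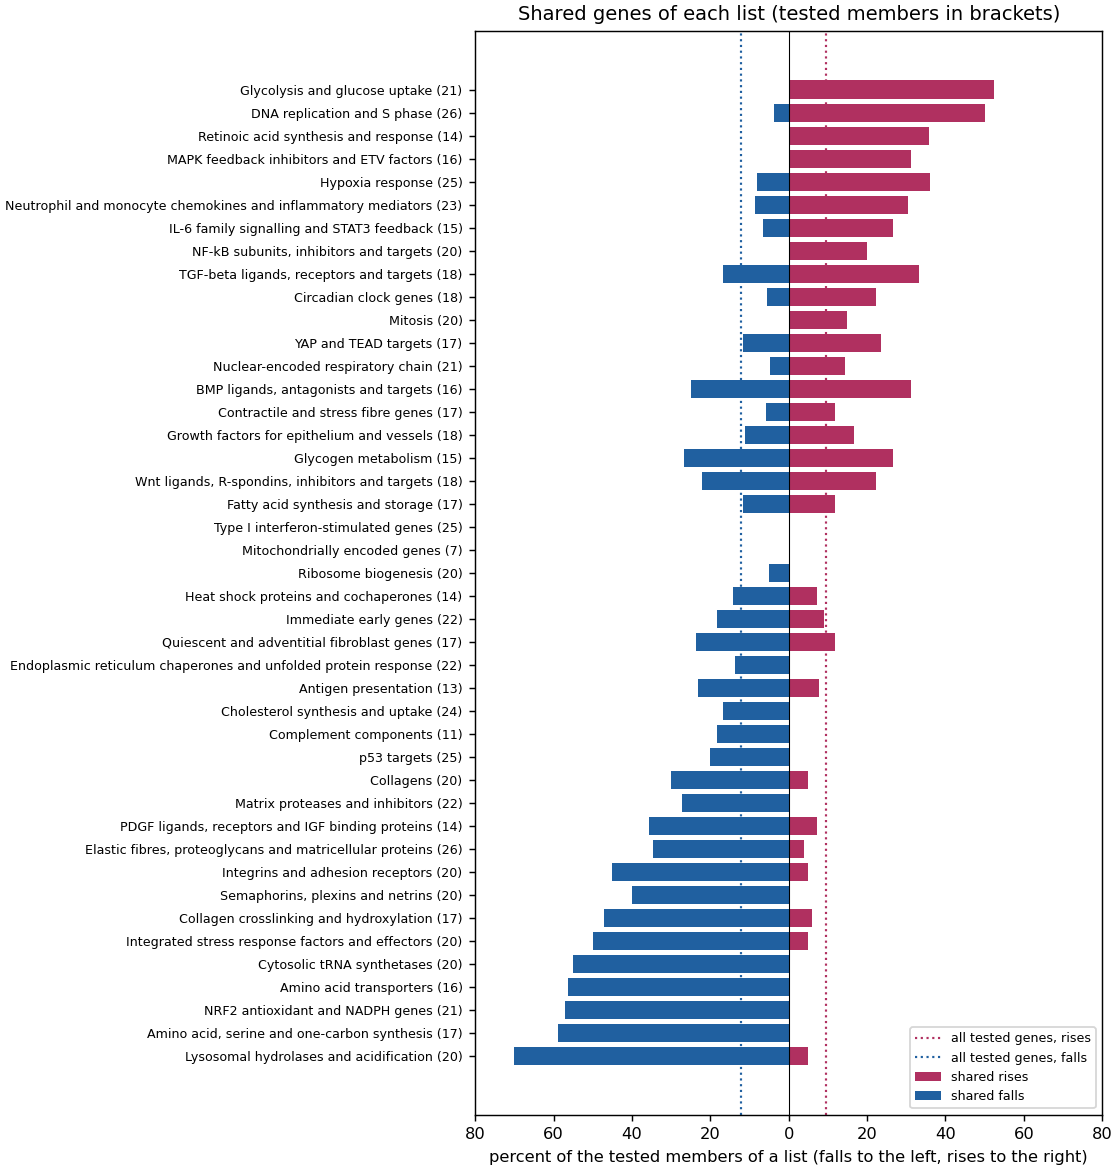
Share of the tested members of each of 43 gene lists that were shared rises (right) or shared falls (left), in percent, with dotted lines at the share among all tested genes (9.62% and 12.2%). Glycolysis and replication genes reach furthest to the right, and lysosomal, amino acid, antioxidant and tRNA synthetase genes furthest to the left.

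Sharing a direction did not mean sharing a size. The difference between APTKA and APTK medium, which uses no untreated library, was called for 4607 genes higher with APTKA (31.1%) and 4717 lower (31.8%) of all tested. Of the 1425 shared rises, 563 rose more with APTKA medium, 205 rose more with APTK medium and 657 were not called different. Of the 1813 shared falls, 888 fell more with APTKA medium, 196 more with APTK medium and 729 were not called. Slc16a3, Mgarp, Bnip3, Ak4 and Slc2a1 rose more with APTK medium. Egln3 rose more with APTKA medium, and for Tpi1, Ldha, Vegfa and Adm the difference was not called.

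For some genes the difference in size was small in a stated sense, namely that the 95% interval of the difference lay within -0.5 to 0.5 on the log2 scale. This held for 763 shared rises and 936 shared falls, and for 5566 of all 14820 genes. Of the genes that moved at least 2-fold in both media, 36 rises and 23 falls met it. The largest are named here under the conditions on separation and level used above. Among the rises they were Ppm1j (difference 0.00, interval -0.22 to 0.22), Pdlim4, Pkn3, Dkk2, Tmem151b and Dchs1, a large protocadherin. Within -0.5 to 0.5 the difference between media was still called for Pdlim4 (0.24), Pkn3 (0.28, interval 0.06 to 0.50) and Dkk2 (-0.21). Among the falls they were Ptx3 (-0.02, -0.46 to 0.42), Mt1, Endod1, Gxylt2, Pgm5 and Sulf2. Sulf2, which trims sulfate from heparan sulfate outside the cell, was at 272, 262, 254 and 237 CPM in untreated, 107, 109, 108 and 102 with APTKA and 96.6, 102, 118 and 108 with APTK medium. Its difference between media was -0.00 with an interval of -0.13 to 0.13.

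The opposite genes show what the mean of both media hides. Il1rl1, the receptor for IL-33, was at 8.72, 10.5, 10.5 and 9.71 CPM in untreated, 48.8, 47.3, 41.1 and 46.2 with APTKA and 2.5, 2.64, 2.23 and 1.99 with APTK medium. The mean of the media was 0.08 ± 0.09 from untreated and was not called. Atf3 and Mmp10 were also higher with APTKA and lower with APTK medium. The fall of Mmp10 with APTK medium missed the threshold without untreated IV or APTK I, III or IV (adjusted p 0.0563 to 0.0656, edgeR). Their means were not called, at -0.21 ± 0.27 for Atf3 and 0.83 ± 0.39 for Mmp10. The Mmp10 mean was called with the 12 libraries alone (adjusted p 0.00422, edgeR) and with DESeq2 (adjusted p 0.0492). The Atf3 mean was called without APTKA I (-0.40, adjusted p 0.0399, edgeR). The interferon genes Cmpk2, Ifit3b and Iigp1 were lower with APTKA and higher with APTK medium. Cmpk2 was at 3.49 to 5.44 CPM in untreated, 0.505 to 1.80 with APTKA and 11.1 to 21.6 CPM with APTK medium.

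At the edge of the definition, the shared genes with the least margin were Psmg4, Rbm5 and Tmcc3, whose larger adjusted p of the 2 media was 0.0497, 0.0497 and 0.0496. Just outside were Acer3, Mex3c and Zswim9 at 0.05002, 0.0501 and 0.0504. Rbm5 had log2 fold changes of 0.14 and 0.17, and Acer3 of 0.31 and 0.19. Genes on the 2 sides of the threshold differ little.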

How the data were processed

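Polyadenylated RNA was measured in 12 libraries (3 groups of 4), with 8 irradiated-arm libraries in the same fit. The authors deposited raw read counts for each gene as whole numbers. Tools listed in the submitters' processing notes are STAR 2.5.2a, bcl2fastq 2.20.0.422 and featureCounts 1.5.0-p1, with the build mm10. Not given in the sources used here are the annotation release, the strand setting and how multiply aligned reads were treated, so overlapping genes and near-identical copies are uncertain. Of 47729 identifiers, 47224 matched a symbol. Of 196 named genes, 49 share exon sequence with another gene.

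Counts were analysed with edgeR 4.0.16 (R 4.3.3), with TMM scaling, the default expression filter by group (14820 genes kept), robust dispersions and 5 group means (15 residual degrees of freedom). The Benjamini-Hochberg adjustment ran over all tested genes. SE was taken as the absolute log2 value divided by the root of the F statistic. Pairs of values such as "1.08 and 1.06" give APTKA medium first. DESeq2 1.42.0, other scalings, filters and left-out libraries were alternatives.

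Members and 43 gene lists were chosen with earlier results of these data known. Named were the 12 largest shared changes each way with separate libraries and a mean log2 CPM of at least 2, up to 4 per list, 6 each way whose interval of the difference between media lay within -0.5 to 0.5, 3 of each opposite pattern and 24 fixed genes. List members named beyond these were chosen after their values were seen, and some genes the rule names are not reported here. Replicates differed beyond counting noise in each pair (chi-square divided by its degrees of freedom, 5.24 to 37.6).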

Additional observations from a re-analysis of the deposited data

Results flagged for a closer look

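In 9 of 186 groups of 4 libraries, 1 library stood apart from the other 3 by Dixon's criterion, where chance gives about 1 in 20. Low values were Mmp10 in APTKA I (20.4 CPM, the others 33.4 to 35.0), Trib3 in untreated IV (114 against 172 to 183), Trp53 in APTK I (13.9 against 16.9 to 17.6), Vegfa in APTK III (354 against 381 to 384) and Cxcl1 in untreated II (2.93 against 3.32 to 3.36). High values were Angptl4 in APTK III (82.4 against 70.1 to 70.8), Cck in untreated IV (16 against 11.8 to 12.3) and in APTK II (96.4 against 66.8 to 71.4), and Ifit3b in untreated I (18.9 against 13.1 to 13.9).

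Of the 58 genes examined, 41 differed between the media in edgeR's test of APTKA minus APTK, adjusted over all genes. The log2 differences of shared rises were Cck (-1.004), Mgarp (-0.60), Slc16a3 (-0.57), Fgf10 (-0.52), Dkk2 (-0.21), Pdlim4 (0.24), Mst1r (0.27), Pkn3 (0.28), Celf4 (1.03), Cxcl5 (3.21), Cxcl1 (3.56) and Tnn (3.82). Those of shared falls were Chac1 (-4.37), Trib3 (-4.03), Itgbl1 (-3.46), Fmod (-1.95), Sema5a (-1.90), Il33 (-1.36), Pi15 (-1.07), Alcam (-0.95), Asns (-0.95), Vegfd (-0.73) and Atf4 (-0.41), where a negative value is a larger fall with APTKA medium. Genes that were not shared gave Iigp1 (-4.44), Cmpk2 (-3.99), Ifit3b (-3.99), Pdgfra (-2.06), Pdgfrb (-1.25), Hspa5 (-1.20), Col1a1 (-0.64), Acta2 (-0.24), Hif1a (0.38), Postn (0.56), Myc (0.75), Trp53 (0.88), Cdkn1a (1.07), Il6 (2.53), Ccl2 (3.08), Atf3 (4.08), Il1rl1 (4.29) and Mmp10 (4.58).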

How the results depend on the processing

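The counts of 1425 shared rises and 1813 shared falls stayed within 1.5 times under other scalings (1353 to 1587 rises, 1706 to 1900 falls, DESeq2 included), without a filter (1497 and 1635), with a stricter one (1384 and 1748) and with the 12 libraries alone (1654 and 1919). Requiring at least 1.5-fold in both media left 483 and 510, and adjusting the larger p of the media 1144 and 1547. Without single libraries the counts were 1264 to 1366 and 1667 to 1792. With RLE size factors the mean of both media was higher for 3780 and lower for 3936 genes, and with DESeq2 for 3773 and 3908, so more genes were lower there, as without untreated I (3580 and 3587) or II (3574 and 3613). A replicate block gave 1405 shared rises and 1787 shared falls, of which 1383 and 1767 were the same genes. No pairing by the labels' replicate numbers was seen: correlations of same-numbered libraries' deviations lay between -0.0956 and 0.0606. A small effect shared by same-numbered libraries could go unseen in correlations over all tested genes. The block also ended the APTK calls of Chac1 (adjusted p 0.0589) and Ebp (0.0523) and the mean call of Mki67 (0.0533), in edgeR's test. Counts under 3 in a group limit Cxcl2, Cxcl3 and Scara5.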
